A study of Rattus norvegicus with 21 samples.

Results

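The comparison described here is between islets of partially pancreatectomised rats with a high blood glucose reading and islets of rats that had the same operation but a lower reading. It takes 11 of the 21 libraries of the series. The members were chosen by the average BG that each sample title and label carries: the high-BG PX group held the 3 libraries with a value of 140 or more, and the lower-BG PX group held the 8 libraries with a value of 121 or less. The nearest values on either side of the gap were 140 in PX 57 and 121 in PX 36. BG stood at 156, 140 and 174 in PX 41, PX 57 and PX 65 (156.7 ± 17.0, SD, n = 3), and ran from 101 to 121 around a median of 110.0 in the lower-BG group (111.4 ± 6.46, SD, n = 8). The labels give no unit for BG.

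The series profiled polyadenylated RNA of islets of Langerhans from Lewis rats, in 11 PX and 10 sham-operated libraries. PX stands for removal of 90% of the pancreas, with islets taken 4 weeks later, and all libraries of both PX groups had this operation; the rats are labelled as 4 to 5 weeks. No genotype, drug or diet differs between the groups in the labels. Libraries are named by the animal number in the title, and nothing beyond that number states that they came from separate animals, so p-values measure only the spread between these libraries. Because the operation is the same on both sides, the contrast addresses what goes with the glucose reading among operated animals.

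Beta cells, the insulin-secreting cells of the islet, take up glucose and break it down, with its products oxidised in mitochondria. The resulting rise in ATP closes KATP channels, calcium enters, and insulin granules are released. After most of the pancreas is removed, the remaining islets carry the whole demand for insulin, and rats in this model may or may not become overtly hyperglycemic. Long exposure of islets to high glucose is known to go with loss of beta cell transcription factors, with expression of genes that beta cells normally keep silent, and with induction of glucose-responsive genes such as Txnip.

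Total counts ran from 4001908 to 13187959 over the 11 PX libraries. PX 65, the library of highest BG, had 49.7% of its counts on 27 markers of acinar cells, the enzyme-secreting exocrine cells that surround islets, while the other PX libraries had 6.28% to 28.5%. PX 57 and PX 65 also shared a pattern with 2 sham libraries, sham 49 and sham 50. Among the 8531 genes with at least 10 CPM on average over the PX libraries (CPM is the usual count scaled to library size, here after TMM), 957 had their 2 lowest sham values in sham 49 and sham 50, and 534 of these 957 (55.8%) also had their 2 lowest PX values in PX 57 and PX 65, against 12.7% of all 8531. For the highest values the share was 261 of 897 (29.1%), against 7.80%. A score built from the sham libraries alone, the mean log2 CPM of the genes high in sham 49 and 50 minus that of the genes low in them stood at 0.98 in PX 57, 0.81 in PX 65, 0.99 in sham 49 and 0.73 in sham 50; the sham values follow from how the genes were chosen. It was -0.34 in PX 41, between -0.37 and 0.21 in the lower-BG group and between -0.54 and -0.12 in the other 8 sham libraries. The pattern was noticed in these data, its source was not tested, and 2 of the 3 high-BG libraries carry it, so results are given below with PX 65 and with PX 57 and PX 65 left out. With both left out, PX 41 alone stands for high BG and is assumed to vary like the other libraries.

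**Figure D1:**
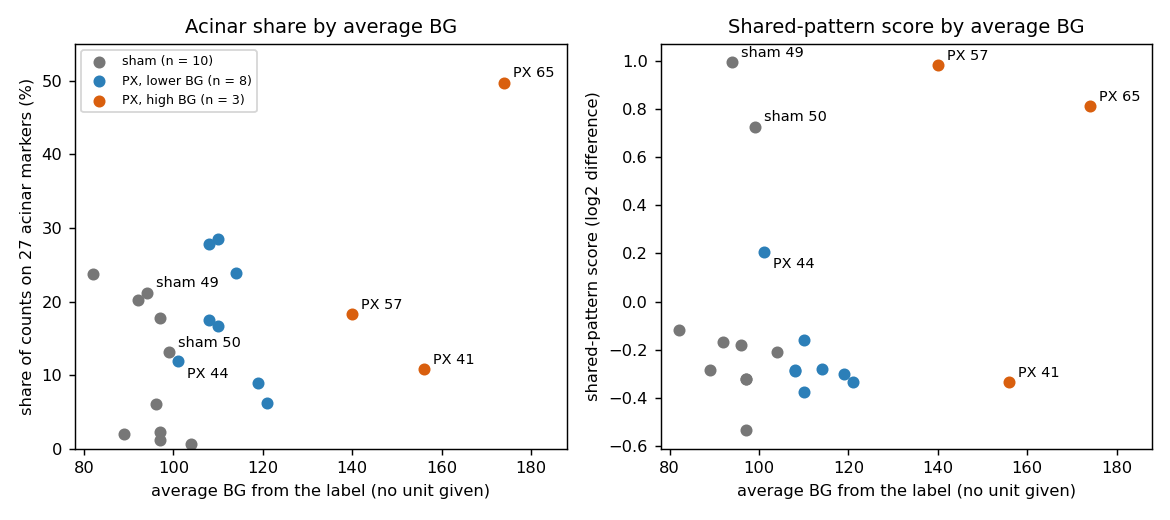
Share of counts on acinar markers in percent (left) and shared-pattern score as a log2 difference (right) against the average BG of the label, 1 point per library, for 10 sham, 8 lower-BG PX and 3 high-BG PX libraries. PX 65 is the highest on the left at 49.7%, and PX 57, PX 65, sham 49 and sham 50 lie above all others on the right.

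None of the marker scores of other cell types differed beyond the spread between libraries. Each score averages log2 CPM over a marker list. The acinar score was 11.2 ± 1.76 in the high-BG group and 10.4 ± 0.976 in the lower-BG group (SD, n = 3 and n = 8; two-sided exact permutation test over all 165 splits, p = 0.303). The macrophage score was 4.3 ± 0.578 against 3.94 ± 0.984 (exact permutation p = 0.558), and the score of stellate cells, fibroblasts and pericytes was 5.68 ± 0.75 against 5.49 ± 0.608 (exact permutation p = 0.667). Duct, leukocyte, endothelial and neural scores differed by 0.34, 0.20, 0.01 and 0.15. The beta cell identity score, over 23 genes, was 5.80 ± 0.398 against 6.11 ± 0.20 (exact permutation p = 0.170), with PX 65 lowest of all 11 at 5.36 and PX 41 and PX 57 at 5.90 and 6.14, inside the lower-BG range of 5.78 to 6.34. Adjusted over the 12 library measures tested, p was 0.767 for each of these except the endothelial score, at 0.909. In bulk islets, fewer cells of a type and less RNA per cell cannot be told apart.

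Across the transcriptome, no gene passed the test between high-BG and lower-BG PX islets. Of 14054 genes tested with edgeR's quasi-likelihood test, 0 were called higher (0.0%) and 0 lower (0.0%), and the smallest adjusted p was 0.479. At an unadjusted p under 0.05 there were 595 genes higher (4.23%) and 805 lower (5.73%), together 9.96%. The groups did not overlap for 102 genes above (0.726%) and 129 below (0.918%). The median log2 fold change over all genes, high minus lower, was -0.03, and 6647 genes (47.3%) had a positive value. DESeq2, which gave an adjusted p for 4141 genes, called 2 higher (0.0483%) and 1 lower (0.0241%): Cartpt at an adjusted p of 0.0127, Hexa at 0.0207 and Gpd2 at 0.0203. Both fits used the same 11 libraries.

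The number of genes with a low p moved with single high-BG libraries. The share at an unadjusted p under 0.05 was 2.51% with PX 65 left out, 5.77% with PX 57 left out, 1.4% with both left out and 19.5% with PX 41 left out. In the last of these fits, which sets PX 57 and PX 65 alone against the lower-BG group, 47 genes were called higher (0.326%) and 272 lower (1.89%), and 202 of the 236 lower calls with at least 10 CPM were among the genes lowest in sham 49 and 50. Of the 38 higher calls with at least 10 CPM, 17 were among the genes highest in them. limma voom with library quality weights called 9 higher (0.064%) and 98 lower (0.697%), and 101 genes were called in both of these settings. Of the voom calls with at least 10 CPM, 86 of 95 lower ones were among the genes lowest in sham 49 and 50. Among the higher ones, 4 of 7 were among the genes highest in them. Of the genes with at least 10 CPM and an unadjusted p under 0.05 in the comparison of all 11 libraries, 340 of 641 lower genes (53.0%) and 159 of 450 higher genes (35.3%) belonged to the sham 49 and 50 sets, which hold 11.2% (lowest) and 10.5% (highest) of all genes of that level. With the pattern score as a covariate the share at an unadjusted p under 0.05 was 4.58%. A fit on BG itself as a slope over the 11 PX libraries called 0 genes, with a smallest adjusted p of 0.216 and 12.3% of genes at an unadjusted p under 0.05, or 2.77% without PX 65.

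**Figure D2:**
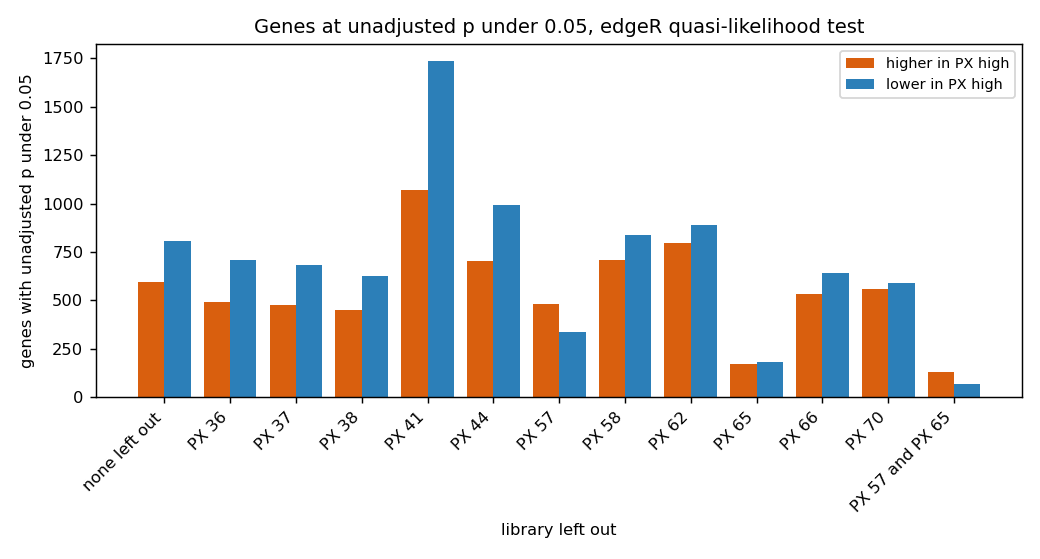
Number of genes at an unadjusted p under 0.05 in edgeR's quasi-likelihood test, higher and lower in the high-BG group, with no library left out, with each PX library left out in turn, and with PX 57 and PX 65 left out. The bars are tallest without PX 41, at 1073 and 1738 genes, and shortest without PX 57 and PX 65, at 132 and 71.

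Among the 6 genes of lowest p with higher values, Cartpt, Mest and Tspan8 were about as much higher in PX 41, which lacks the shared pattern, as in the other high-BG libraries. Cartpt encodes the precursor of CART, a neuropeptide made in the brain and in islet endocrine cells. Its level was 196, 85.8 and 255 CPM in PX 41, PX 57 and PX 65, and it ran from 18.3 to 74.6 around a median of 39.9 in the lower-BG group. All 3 high-BG libraries were above all 8 lower-BG libraries, and the sham libraries ran from 3.95 to 21.3 CPM. The log2 fold change was 2.08 ± 0.43 (SE; 95% interval 1.15 to 3.01), an average fold of 4.23, with an unadjusted p of 0.000339 and an adjusted p of 0.479 in edgeR. It was 1.74 without PX 65 and 2.19 with PX 57 and PX 65 left out. Within the run of animal numbers 36 to 44, PX 41 exceeded the mean of the 4 lower-BG libraries by 2.74 on the log2 CPM scale, and within 57 to 70 the mean of PX 57 and PX 65 exceeded that of the 4 others by 1.67. In the count table the gene lies on chromosome 2 from 30125249 to 30127269, minus strand, in a build not given in the sources used here.

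Mest is an imprinted gene, expressed from the paternal copy, that encodes a hydrolase-like membrane protein. It stood at 21, 19.6 and 20.2 CPM in PX 41, PX 57 and PX 65, a narrow band above the lower-BG range of 7.0 to 13.5. The sham range, 6.83 to 19.8 CPM, covered most of that distance. Its log2 fold change was 0.95 ± 0.19 (SE), with the lowest unadjusted p of the named genes (0.000226) and an adjusted p of 0.479 in edgeR, and it was 0.98 with PX 57 and PX 65 left out. Tspan8 encodes a tetraspanin, a membrane protein that organises other membrane proteins. It had 42.0, 36.9 and 40.0 CPM in the high-BG libraries against 7.54 to 27.2 in the lower-BG group and 1.38 to 5.56 in sham. After TMM scaling, the 3 high-BG libraries were the highest of all 21. The log2 fold change was 1.21 ± 0.29 (SE; edgeR adjusted p = 0.479), or 1.28 with PX 57 and PX 65 left out.

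Of the 6 genes of lowest p with lower values, Gpd2, Adora1 and Slc35g1 kept most of their difference in PX 41. Gpd2 encodes the mitochondrial glycerol-3-phosphate dehydrogenase, which passes reducing equivalents from glycolysis to the respiratory chain. Its level was 43.9, 41 and 32.4 CPM in PX 41, PX 57 and PX 65, below all lower-BG libraries (54.6 to 71.8, median 62.9), and all sham libraries were at 65.9 to 94.4. Sham 49 stood near the low end of the sham range of Gpd2, at 66.2 CPM, and sham 50 stood at 88.2. The log2 fold change was -0.68 ± 0.15 (SE; 95% interval -0.99 to -0.36; edgeR adjusted p = 0.479), and -0.53 with PX 57 and PX 65 left out. Adora1 encodes the adenosine A1 receptor, which inhibits cyclic AMP formation. It had 10.3, 11.2 and 5.37 CPM against 14.1 to 25.5 in the lower-BG group and 20.5 to 43.8 in sham, a log2 fold change of -1.11 ± 0.26 (SE; edgeR adjusted p = 0.479), or -0.94 with PX 57 and PX 65 left out. Sham 49 and sham 50, at 21.5 and 22.7 CPM, were near the low end of the sham range of Adora1, whose median was 30.4. Slc35g1, a membrane protein of the SLC35 family, had 8.25, 6.95 and 2.78 CPM against 12 to 20.2. Its sham values reached down to 12.9 and 13.2 CPM in sham 50 and sham 49 and ran from 20.3 to 30.4 in the others, so this gene is also low in the libraries of the shared pattern; its log2 fold change was -1.31 ± 0.30 (SE) and -0.89 with PX 57 and PX 65 left out. For all 3 genes the high-BG libraries were the lowest of the 21. In the coordinates of the count table Mest lies on chromosome 4 from 58053041 to 58063138, Tspan8 on chromosome 7 from 58814805 to 58847563 and Gpd2 on chromosome 3 from 43255567 to 43359074. Adora1 lies on chromosome 13 from 51042248 to 51076852 and Slc35g1 on chromosome 1 from 257076221 to 257082655.

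**Figure D3:**
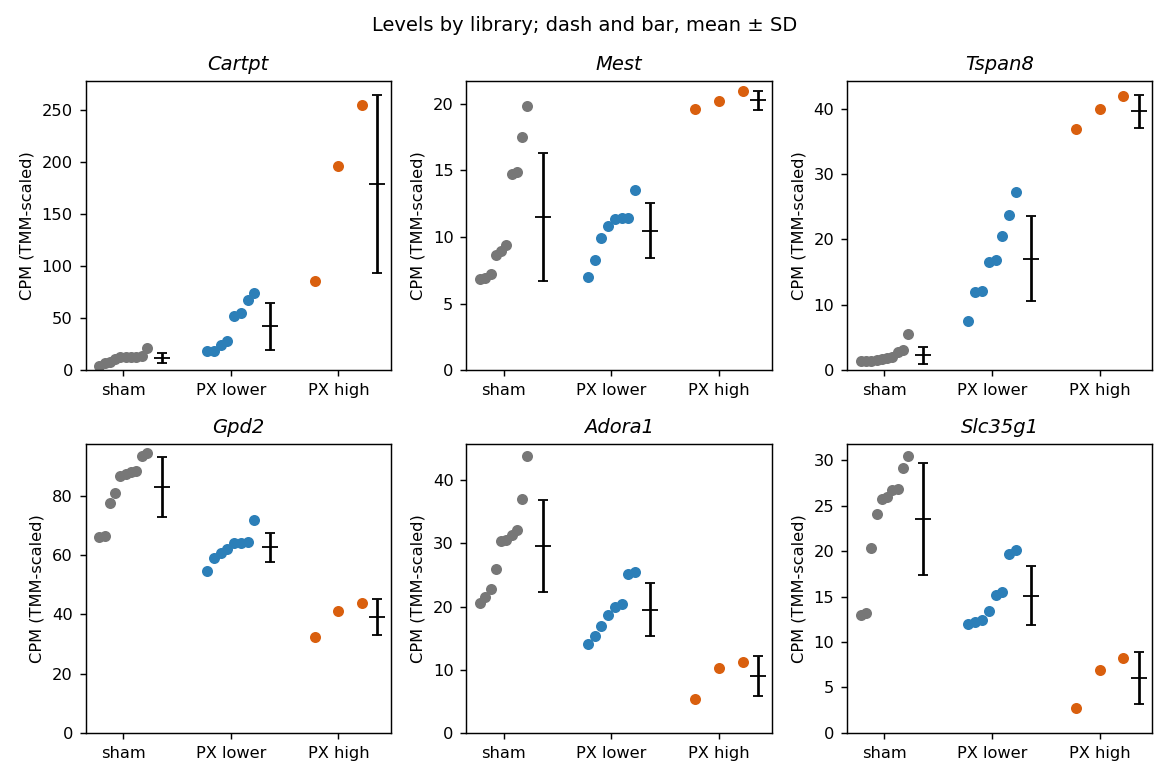
TMM-scaled CPM of Cartpt, Mest, Tspan8, Gpd2, Adora1 and Slc35g1 in each of 10 sham, 8 lower-BG PX and 3 high-BG PX libraries, sorted within a group, with the mean ± SD beside each. In each panel the high-BG points do not overlap the lower-BG points, and no gene passed the adjusted threshold in edgeR.

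The other 6 genes of lowest p differed less in PX 41 than in PX 57 and PX 65. Dctn2, a subunit of the dynactin motor complex, stood at 81.2 CPM in PX 41, just above the lower-BG range of 69.8 to 79.4, but at 129 in PX 57 and 126 in PX 65, and at 117 and 115 in sham 49 and 50 against 66.3 to 83.8 in the other sham libraries. Its log2 fold change of 0.61 ± 0.15 (SE) was 0.12 with PX 57 and PX 65 left out. Hexa, a lysosomal hexosaminidase subunit, had 318, 435 and 471 CPM against 229 to 291, and its log2 fold change of 0.67 became 0.29. Pef1, a calcium-binding EF-hand protein, went from 0.63 to 0.37. Htatsf1, a splicing and transcription elongation factor, had 19.5, 10.2 and 8.70 CPM against 21.9 to 33.5, and its log2 fold change went from -1.04 to -0.45. Ppig, a nuclear cyclophilin, went from -0.74 to -0.40, and Limch1, an activator of non-muscle myosin, from -0.91 to -0.52. In Htatsf1, Ppig and Limch1 sham 49 and 50 were the 2 lowest sham libraries, and in Hexa, Pef1 and Dctn2 the 2 highest. limma voom with quality weights called 7 of the 12 genes of lowest p (Mest, Hexa, Dctn2, Gpd2, Htatsf1, Ppig and Limch1), with adjusted p from 0.0393 to 0.0438. Over all genes it called 0.064% higher and 0.697% lower. The 12 genes had been picked by low edgeR p in the same 11 libraries, so these calls are not independent evidence. Whether the shared pattern or BG sets the differences in Dctn2, Hexa, Pef1, Htatsf1, Ppig and Limch1 was not tested.

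Transcripts of the islet hormones were not distinguishable between the groups. Ins1 and Ins2, the insulin genes, are near-identical copies whose reads may be split between them. Ins1 stood at 65677, 135748 and 45267 CPM in PX 41, PX 57 and PX 65. PX 57 lay above the lower-BG range of 37441 to 82944, and PX 41 and PX 65 lay inside it. Its log2 fold change was 0.32 (95% interval -0.76 to 1.39), and that of Ins2 was 0.28 (-0.80 to 1.35), so a difference of 1 log2 unit in the higher direction lies inside both intervals. Iapp, which encodes the co-secreted peptide amylin, differed by 0.25 (-0.78 to 1.27). Gcg, the glucagon gene of alpha cells, differed by 0.04 (-1.03 to 1.12), Sst, the somatostatin gene of delta cells, by 0.11 (-0.42 to 0.65), and Ppy, which encodes pancreatic polypeptide, by 0.48 (-0.45 to 1.41). Of the 7 hormone genes tested, 7 had a positive value (beside 47.3% of all genes) and 0 had an unadjusted p under 0.05 (beside 9.96%). The list median of 0.28 was -0.03 with PX 57 and PX 65 left out.

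Genes of beta cell identity had a negative median without passing the test. Of 23 tested, 0 were called, 4 had an unadjusted p under 0.05, all with lower values (beside 5.73% of all genes), and 20 were negative; the median was -0.29 beside -0.03 over all genes. Nkx6-1, a transcription factor that maintains beta cells, stood at 45.7, 58.3 and 29.1 CPM in PX 41, PX 57 and PX 65 against 48.9 to 146 in the lower-BG group and 74.1 to 137 in sham. The groups overlapped through PX 57, and the log2 fold change of -0.80 ± 0.33 (SE) had an unadjusted p of 0.0283 and an adjusted p of 0.484 in edgeR. It was -0.79 with PX 57 and PX 65 left out. Esrrg, a nuclear receptor of mature beta cells, differed by -0.65 ± 0.25 (SE), or -0.32 with PX 57 and PX 65 left out. Robo1, a guidance receptor in islets, differed by -0.81 ± 0.33 (SE), or -0.17 with PX 57 and PX 65 left out. The remaining identity gene with an unadjusted p under 0.05 went from -0.87 to -0.09 in the same way. Pdx1, the central beta cell transcription factor, was at 46.3, 68.0 and 35.7 CPM against 35.5 to 65.9, a log2 fold change of 0.06 (95% interval -0.42 to 0.54). Mafa, a regulator of insulin transcription, differed by -0.11 (-0.78 to 0.56), and Ucn3, a maturity marker, by -0.29 (-0.85 to 0.28). The list median was -0.05 without PX 65 and -0.34 with PX 57 and PX 65 left out.

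Genes of glucose sensing had a negative median without passing the test. Of 13 tested, 10 were negative and 1, Gpd2, was lower at an unadjusted p under 0.05 (beside 5.73% of all genes); the median was -0.37, or -0.13 without PX 65 and -0.25 with PX 57 and PX 65 left out. Slc2a2, the glucose transporter, stood at 1363, 2214 and 1093 CPM in the high-BG libraries against 1070 to 3672, a log2 fold change of -0.35 (95% interval -1.08 to 0.39). Abcc8, the sulfonylurea receptor subunit of the KATP channel, differed by -0.16 (-0.60 to 0.29). The calcium channel genes Cacna1d and Cacna1a differed by -0.47 and -0.48, and by -0.13 and 0.11 with PX 57 and PX 65 left out.

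**Figure D4:**
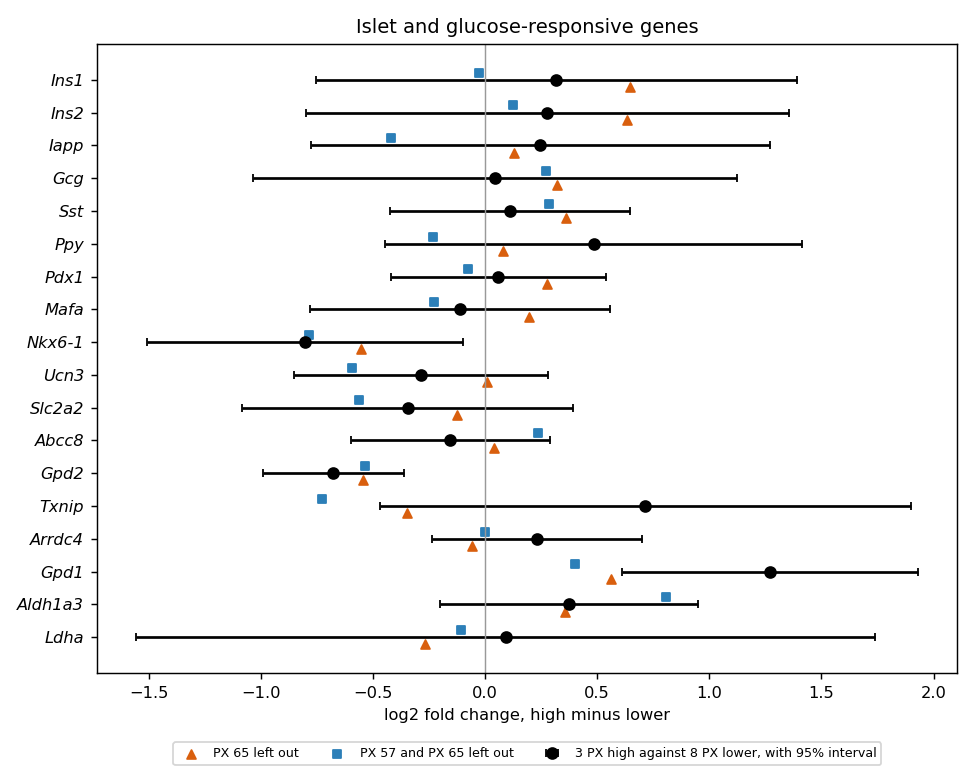
Log2 fold change, high-BG minus lower-BG PX, of 18 islet and glucose-responsive genes with 95% intervals (black), and the same value with PX 65 left out (triangles) and with PX 57 and PX 65 left out (squares). The intervals exclude 0 for Nkx6-1, Gpd2 and Gpd1, none of which passed the adjusted threshold, and Txnip moves from 0.71 to -0.35 without PX 65.

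In the granule and exocytosis lists no gene passed the test, and the genes of largest difference were Cpe and Cplx2. Cpe, the carboxypeptidase that finishes proinsulin processing, stood at 3026 CPM in PX 41, inside the lower-BG range of 2466 to 4542, but at 702 in PX 57 and 592 in PX 65. Sham 49 and 50 had 750 and 1060 against 2812 to 4277 in the other sham libraries. The log2 fold change of -1.22 ± 0.46 (SE) was -0.17 with PX 57 and PX 65 left out. Cplx2, a complexin that acts on the fusion machinery of granules, had 94.5, 130 and 52.2 CPM in PX 41, PX 57 and PX 65 against 82.8 to 354, a log2 fold change of -0.95 ± 0.46 (SE; edgeR unadjusted p = 0.0604). The lower-BG median was 140 CPM. The highest lower-BG values were 354 in PX 44 and 329 in PX 37, followed by 160 in PX 38, so PX 41 and PX 57 lay inside the range of the others. Sham 49 and 50, at 339 and 312 CPM, were inside the range of the other sham libraries (122 to 481), and the log2 fold change was -0.94 with PX 57 and PX 65 left out. Chgb, a granule chromogranin, went from -0.48 to 0.26. Rims2, an active-zone protein, differed by -0.61 ± 0.28 (SE), or -0.35. Scg5, the chaperone of proconvertase 2, had a positive value of 0.43, or 0.07. Of 14 granule genes tested 1 had an unadjusted p under 0.05, and of 15 exocytosis genes 2 did. All had lower values (beside 5.73% of all genes lower at that p), and the list medians were -0.09 and -0.19.

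Glucose-responsive genes did not differ as a group. Txnip, an inhibitor of thioredoxin and of glucose uptake that glucose induces through ChREBP, stood at 223 and 339 CPM in PX 41 and PX 57, inside the lower-BG range of 105 to 644, and at 1234 in PX 65. The log2 fold change of 0.71 (95% interval -0.47 to 1.90) was -0.35 without PX 65, the library with 49.7% of counts on acinar markers, and 0.05 in a fit that also held the acinar score. Arrdc4, its close relative in sequence and in glucose response, was at 78.2, 68.2 and 125 CPM against 55.7 to 108, a log2 fold change of 0.23 (-0.24 to 0.70). Gpd1, the cytosolic glycerol-3-phosphate dehydrogenase that works opposite Gpd2 in the glycerol phosphate shuttle, had 10.7, 12.5 and 35.2 CPM, all above the lower-BG range of 5.37 to 10.1. The sham libraries ran from 4.05 to 10.7 CPM of Gpd1, so their range reached the value of PX 41. The log2 fold change was 1.27 ± 0.31 (SE; unadjusted p = 0.00103, edgeR adjusted p = 0.479), 0.56 without PX 65 and 0.40 with PX 57 and PX 65 left out. Of 13 ChREBP-responsive genes tested 2 were higher at an unadjusted p under 0.05, and the median was 0.06. Of 20 glycolysis genes 1 was: Pgam1, phosphoglycerate mutase, at 0.37, or 0.02 with PX 57 and PX 65 left out. Over all genes 4.23% were higher at that p.

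Genes that mark loss of the beta cell state had a positive median but no member past the threshold. Of 9 dedifferentiation markers tested, 7 were positive (beside 47.3% of all genes) and 0 had an unadjusted p under 0.05 (beside 9.96%), with a median of 0.23. Aldh1a3, a retinaldehyde dehydrogenase that appears in failing beta cells, stood at 33.0, 14.5 and 24.8 CPM in PX 41, PX 57 and PX 65 against 11.9 to 27 in the lower-BG group and 1.59 to 22.6, around a median of 2.90, in sham. Its log2 fold change was 0.38 (95% interval -0.20 to 0.95), and moved with single libraries: 0.81 with PX 57 and PX 65 left out, 0.64 without PX 57 and 0.08 without PX 41. Of 20 genes that beta cells normally silence, 14 were positive and 2 were higher at an unadjusted p under 0.05, with a median of 0.11. Over all genes 47.3% were positive and 4.23% were higher at that p. Ldha, lactate dehydrogenase A, stood at 18.8, 14.1 and 31.9 CPM against 4.57 to 56.2, a log2 fold change of 0.09 with a 95% interval of -1.56 to 1.74. Fcgrt, the neonatal Fc receptor, had 74.2, 58.2 and 150 CPM against 37.7 to 97.8, with a log2 fold change of 0.69, or 0.20 without PX 65.

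None of the genes on the stress and metabolic lists passed the test. Of 25 genes of the unfolded protein response, the program that relieves protein load in the endoplasmic reticulum, 1 had an unadjusted p under 0.05: Ern1, the sensor IRE1, at -0.46 ± 0.21 (SE). Over all genes 5.73% were lower at that p. Hsp90b1, an endoplasmic reticulum chaperone, had 952 CPM in PX 41 against 302 and 358 in PX 57 and PX 65, and 301 and 389 in sham 49 and 50; its log2 fold change of -0.64 was 0.16 with PX 57 and PX 65 left out. Among ATF4 targets, Phgdh of serine synthesis had 163 CPM in PX 65 and 13.0 and 35.4 in the other high-BG libraries, and among antioxidant enzymes Prdx4 of the endoplasmic reticulum had 1500 CPM in PX 65 and 93.6 and 250 in the others. Without PX 65 their log2 fold changes went from 1.38 to -0.10 and from 1.57 to -0.22. When the fit also held the acinar score they were 0.05 and 0.15. Sod1, the cytosolic superoxide dismutase, was less dependent on the libraries in doubt: it stood at 201, 195 and 184 CPM against 130 to 186, a log2 fold change of 0.37 ± 0.14 (SE; unadjusted p = 0.0213, edgeR adjusted p = 0.484), and 0.41 with PX 57 and PX 65 left out. The sham libraries ran from 68.1 to 252 CPM of Sod1 around a median of 91.9, so their range reached above the high-BG values.

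Subunits of the respiratory chain, which make ATP from the oxidation of fuels, were positive for 22 of 26 members, and 6 of 26 had an unadjusted p under 0.05, all with higher values; over all genes tested 47.3% were positive and 4.23% were higher at that p. The median was 0.33, and -0.06 with PX 57 and PX 65 left out. Ndufa4 had 49.8, 89.8 and 90.2 CPM against 16.1 to 64.7, and its log2 fold change of 0.85 became 0.21. In fatty acid oxidation 3 of 19 genes were higher and 1 lower at an unadjusted p under 0.05 (beside 4.23% and 5.73% of all genes). Etfa and Acads had values of 0.55 and 0.77, and these were 0.06 and 0.15 with PX 57 and PX 65 left out. Of 20 cholesterol synthesis genes 1 was lower at an unadjusted p under 0.05 (beside 5.73% of all genes), and the list median was 0.07. Of 14 hypoxia-responsive genes 1 was higher and 1 lower at an unadjusted p under 0.05 (beside 4.23% and 5.73% of all genes). Egln3, an oxygen-sensing prolyl hydroxylase, had 3.04, 2.99 and 5.37 CPM against 1.51 to 3.09, a log2 fold change of 0.67, or 0.34 with PX 57 and PX 65 left out. P4ha2, a collagen prolyl hydroxylase, differed by -0.38 and stayed at -0.41, and Kdm3a, a histone demethylase named here after its values were seen, had 36.9 to 37 CPM in the high-BG libraries against 37.3 to 88.1, a log2 fold change of -0.44 (95% interval -0.95 to 0.07).

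Growth and senescence genes gave single members only. Igfbp7, a secreted IGF-binding protein, stood at 423, 528 and 406 CPM in PX 41, PX 57 and PX 65, above all lower-BG libraries (227 to 380). This is a log2 fold change of 0.55 ± 0.17 (SE; unadjusted p = 0.00604, edgeR adjusted p = 0.479), or 0.43 with PX 57 and PX 65 left out. Glb1, lysosomal beta-galactosidase, differed by 0.69 ± 0.22 (SE), or 0.22, and Cdkn1b, the cell cycle inhibitor p27, by -1.09 ± 0.37 (SE), or -0.22. Of 14 genes of this list 2 were higher and 1 lower at an unadjusted p under 0.05 (beside 4.23% and 5.73% of all genes). Of 27 cell cycle genes 1 was higher at that p, the replication licensing gene Mcm2, at 0.46 ± 0.17 (SE).

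Acinar and Reg genes had the largest list medians, and these rested on PX 65. Of 27 acinar genes 25 were positive (beside 47.3% of all genes) and 9 were higher at an unadjusted p under 0.05 (beside 4.23%), with a median of 1.44, which was -0.24 without PX 65 and -0.98 with PX 57 and PX 65 left out. Prss1, trypsinogen, a member of a family of near-identical copies, had 21630 and 40649 CPM in PX 41 and PX 57, inside the lower-BG range of 9424 to 78532, and 309968 in PX 65. Cpa1, carboxypeptidase A1, had 2726, 5422 and 32140 against 1523 to 10084, and Pnlip, pancreatic lipase, had 4025, 10289 and 81603 against 3108 to 14436. Reg1a, a secreted lectin-like protein of acinar cells, had 1070, 853 and 8113 against 620 to 2156. Of the 4 Reg genes tested 2 were higher at an unadjusted p under 0.05 (beside 4.23% of all genes). Their median of 1.5 was 0.21 without PX 65.

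The epithelial keratins Krt8 and Krt18, which duct and other epithelial cells share, were less tied to single libraries. Krt8 stood at 327, 424 and 419 CPM against 158 to 373, a log2 fold change of 0.69 ± 0.21 (SE; unadjusted p = 0.00526, edgeR adjusted p = 0.479), or 0.42 with PX 57 and PX 65 left out. Krt18 stood at 145, 158 and 172 against 89.7 to 159, a log2 fold change of 0.49 ± 0.18 (SE), or 0.35. They were the 2 of 14 duct genes with an unadjusted p under 0.05 (beside 4.23% of all genes higher at that p). The sham libraries had 136 to 223 CPM of Krt8 and 64.5 to 99.6 of Krt18.

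Immune and stromal markers did not separate the groups. Csf1r, the macrophage growth factor receptor, was at 92.8, 49.7 and 84.6 CPM in PX 41, PX 57 and PX 65 against 29.0 to 159, a log2 fold change of 0.14 (95% interval -0.91 to 1.19). Adgre1, the macrophage marker F4/80, differed by 0.63 (-0.17 to 1.43), and Mmp12, macrophage elastase, which ran from 12.1 to 371 CPM within the lower-BG group, by -0.20 (-2.32 to 1.92). Of 15 macrophage, 7 leukocyte, 6 MHC class II, 25 matrix and 15 stellate and fibroblast genes tested, 0 had an unadjusted p under 0.05 (beside 9.96% of all genes). Lcn2, an acute-phase lipocalin, stood at 64.1, 70.6 and 64.3 CPM against 7.85 to 83.8, with sham at 1.28 to 3.49, and differed by 0.92 (-0.07 to 1.91). Tagln, a smooth muscle and pericyte protein, had 76.7 CPM in PX 41 and 36.9 and 36.5 in PX 57 and PX 65 against 18.9 to 58.6. With PX 57 and PX 65 left out the matrix and the stellate medians were 0.64 and 0.67, beside 0.13 and 0.19 in the full comparison. Of 11 endothelial genes tested 5 were positive and 6 negative, with a median of -0.01. At an unadjusted p under 0.05, 1 was higher (beside 4.23% of all genes). This was Esam, an adhesion molecule, at 36.5, 38.5 and 38.9 CPM, above all lower-BG libraries (21.8 to 32.1) and all sham libraries (14.7 to 21.8), with a log2 fold change of 0.44 ± 0.15 (SE; edgeR adjusted p = 0.479). Isg15, an interferon-stimulated gene, was below 2 CPM in all PX libraries and differed by -1.94 ± 0.75 (SE). Casr, the calcium-sensing receptor, differed by -0.81 ± 0.36 (SE), or -0.42 with PX 57 and PX 65 left out.

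Over all 32 lists, 503 of 569 distinct genes passed the filter on low counts. Of these, 0 were called, 52 (10.3%) had an unadjusted p under 0.05 beside the 9.96% of all genes tested, and 5 (0.994%) separated the groups without overlap, beside 1.64% of all genes tested: Gpd1, Igfbp7 and Esam above, Gpd2 and Kdm3a below.

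**Figure D5:**
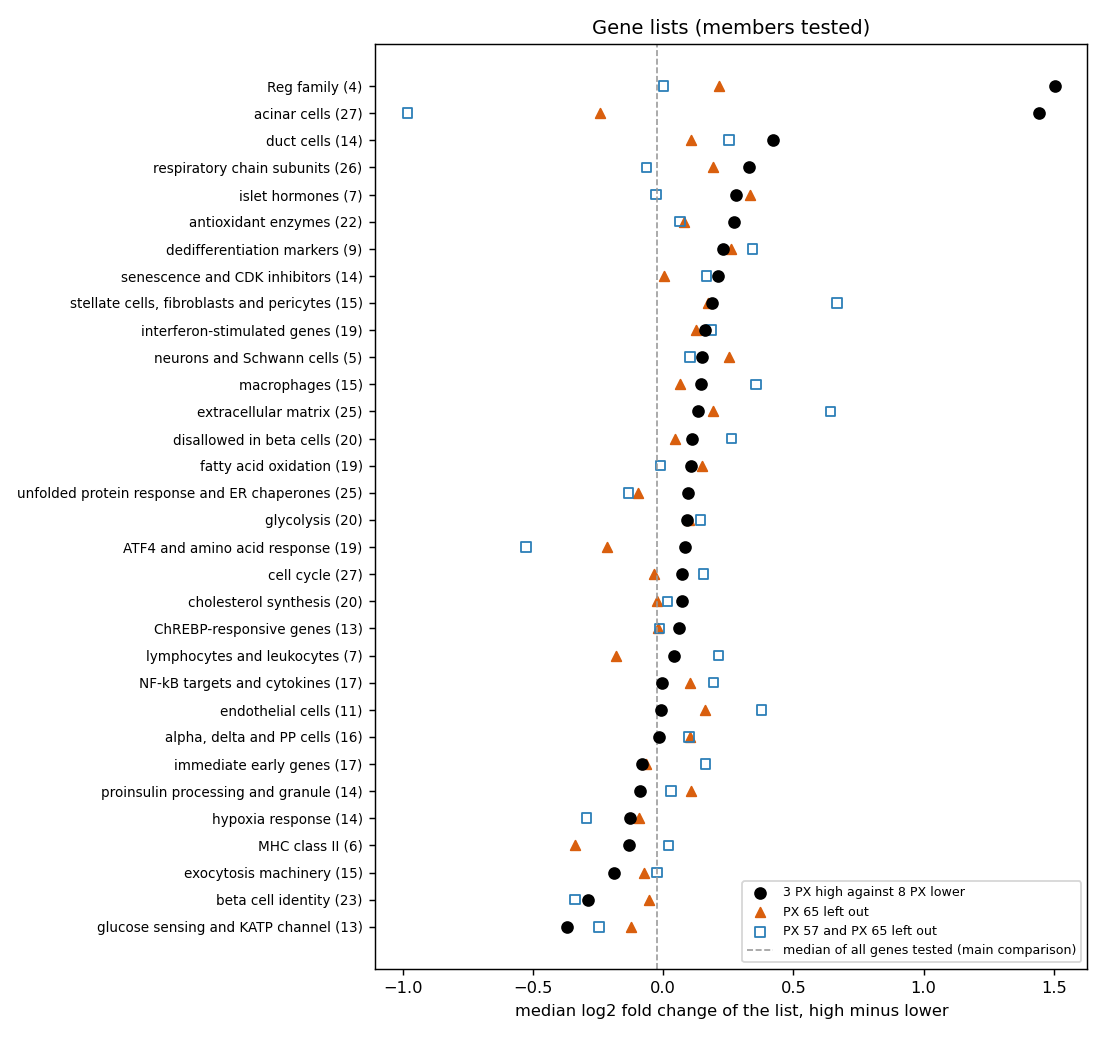
Median log2 fold change, high-BG minus lower-BG PX, of the tested members of each of 32 gene lists (number tested in brackets), with all 11 libraries (black), with PX 65 left out (triangles) and with PX 57 and PX 65 left out (open squares); the dashed line is the median of all genes tested, -0.03. The acinar and Reg medians, 1.44 and 1.5, are the highest and drop to -0.24 and 0.21 without PX 65.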

How the data were processed

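RNA-seq counts of islets from 11 PX and 10 sham libraries were used; groups came from the average BG in titles and characteristics. The deposited values are raw counts of reads per gene in featureCounts layout, per the file headers, over 28914 rows. FastQC, Subread, featureCounts and limma were used by the authors, per the submitters' processing notes; no source used here gives their versions or roles, the genome build or the strand setting, and without the strand setting antisense overlaps cannot be resolved. The authors' table of PX against sham was not used.

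From the counts, edgeR 4.0.16 (R 4.3.3) fitted robust quasi-likelihood models to the 11 PX libraries with TMM scaling, for the 14054 genes that passed filterByExpr at a minimum count of 10 and a total of 15. Tests were two-sided, with Benjamini-Hochberg adjustment over all genes and a threshold of 0.05. The F statistic and fold change gave the standard errors. Log2 CPM used a prior count of 2. Library measures were compared by exact permutation tests in scipy 1.17.1; the smallest p that 3 against 8 libraries allow is 0.0121. DESeq2 1.42.0, limma 3.58.1, other scalings and filters, covariates, a BG slope and left-out libraries were alternatives. Only the main edgeR fit was tested on simulated counts, which were drawn without the shared pattern.

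Named genes were the 6 of lowest p in each direction with at least 10 mean CPM, 22 islet, exocrine and macrophage genes always given where tested, and up to 4 members per list by p; some genes named by the rule are not reported here. Members and lists were chosen with earlier results of these data known. The covariate on the shared pattern, leaving out PX 57 with PX 65, and the slope without PX 65 were chosen after seeing the data.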

Additional observations from a re-analysis of the deposited data

Results flagged for a closer look

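In the lower-BG group, 81 sets of 8 values were screened for a library far from the others, and 2 were found. Chance alone marks about 1 in 20 sets of this kind, and the sets share the same 8 libraries. The score of neurons and Schwann cells was 3.23 in PX 58 and at most 2.08 in the other 7. Kdm3a was at 6.47 on the log2 CPM scale in PX 44 and at most 5.71 in the other 7.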

How the results depend on the processing

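No paired analysis was possible because the groups share no animal number. The groups hold 3 and 8 libraries, which limits what could be detected. The intervals given beside some genes hold for a single gene, while calls were adjusted over all 14054 genes tested. An interval can therefore exclude 0 for a gene that was not called, as for Cartpt and Gpd2. Of the 28 alternatives, 25 called 0 genes in either direction, as did the comparison itself. The exceptions were DESeq2 with 2 higher and 1 lower, limma voom with quality weights with 9 and 98, and the fit without PX 41 with 47 and 272, so that leaving out 1 library at a time gave 0 to 47 higher and 0 to 272 lower calls; the cause was not tested. Of the 69 genes named, 44 had the same direction in every setting run, Cartpt, Mest, Tspan8, Gpd2, Adora1 and Slc35g1 among them. Those listed here by name had been picked by low p in the same PX libraries. They were then singled out because PX 41 showed most of the difference. The settings refit all or most of these libraries. A constant direction therefore follows largely from that choice and is not independent evidence. The other 25 of the 69 genes named, none of which was called in the comparison, changed sign in at least 1 setting, and the cause was not tested. Their log2 fold changes in those settings follow. With PX 57 and PX 65 left out it was -0.027 for Ins1, -0.42 for Iapp, -0.23 for Ppy, -0.078 for Pdx1, 0.24 for Abcc8, -0.73 for Txnip, -0.00030 for Arrdc4, -0.11 for Ldha, -1.0 for Cpa1, -0.93 for Prss1, 0.11 for Cacna1a, 0.26 for Chgb, 0.16 for Hsp90b1, -1.06 for Phgdh, -1.16 for Prdx4, -1.13 for Pnlip and -0.22 for Reg1a. With library totals only it was -0.24 for Iapp, -0.11 for Gcg, -0.071 for Sst, -0.076 for Ppy, -0.22 for Pdx1, -0.11 for Txnip, -0.27 for Arrdc4, -0.32 for Ldha and -0.15 for Csf1r. As a slope per 10 units of BG without PX 65 it was -0.035 for Iapp, -0.044 for Gcg, 0.0053 for Mafa, 0.027 for Abcc8, -0.012 for Txnip, -0.017 for Ldha, -0.18 for Cpa1, -0.20 for Prss1, -0.12 for Phgdh, -0.18 for Prdx4, -0.18 for Pnlip and -0.079 for Reg1a. With the shared-pattern score as a covariate it was -0.46 for Iapp, -0.22 for Gcg, -0.034 for Pdx1, 0.21 for Abcc8, -0.27 for Cpa1, -0.36 for Prss1, 0.094 for Cacna1a, 0.079 for Chgb, 0.027 for Hsp90b1, -0.23 for Phgdh, -0.46 for Prdx4 and -0.39 for Pnlip. With the lower-BG group limited to a BG of 114 or less it was -0.22 for Gcg and -0.16 for Ldha. As a slope per 10 units of BG it was -0.081 for Gcg, -0.017 for Sst, -0.023 for Pdx1 and 0.040 for Mmp12. In limma voom with quality weights it was -0.046 for Sst and 0.50 for Mmp12. With PX 44 and PX 65 left out it was -0.025 for Ppy, 0.14 for Mafa, 0.10 for Ucn3, 0.073 for Slc2a2, 0.017 for Abcc8, -0.49 for Txnip, -0.034 for Arrdc4, -0.43 for Ldha, -0.050 for Csf1r, -0.47 for Cpa1, -0.35 for Prss1, -0.19 for Phgdh, -0.18 for Prdx4, -0.24 for Pnlip and -0.28 for Reg1a. With the acinar score as a covariate it was -0.19 for Ldha and -0.090 for Cpa1. Library totals only, which moved the median of all genes from -0.03 to -0.37, also turned the score differences negative, to -0.11 (duct), -0.10 (macrophage), -0.21 (leukocyte), -0.27 (stellate), -0.45 (endothelial) and -0.27 (neural). In that setting 20 of the 32 list medians changed sign. The TMM factor was 0.41 in PX 65 and ran from 0.89 in PX 62 to 1.30 in PX 36 in the other PX libraries. TMM scaling therefore raised the CPM values of PX 65 the most. With 1 library left out at a time, log2 fold changes ran for Ins1 from -0.25 to 0.65, Ins2 from -0.22 to 0.63, Gcg from -0.11 to 0.37, Sst from -0.034 to 0.36, Pdx1 from -0.23 to 0.28, Mafa from -0.52 to 0.19, Ucn3 from -0.79 to 0.0091, Abcc8 from -0.42 to 0.041, Txnip from -0.35 to 1.11, Arrdc4 from -0.059 to 0.40, Ldha from -0.27 to 0.52, Mmp12 from -1.44 to 0.34, Csf1r from -0.037 to 0.44, Cpa1 from -0.37 to 1.80, Prss1 from -0.36 to 2.10, Phgdh from -0.10 to 1.87, Prdx4 from -0.22 to 2.08, Pnlip from -0.24 to 2.40 and Reg1a from -0.34 to 1.90. The lowest or the highest of these values came from leaving out PX 41, PX 57 or PX 65 for all of these genes. Differences in library measures, high minus lower, ran for the acinar cells score from -0.11 to 1.61, the stellate cell score from -0.18 to 0.57, the endothelial cells score from -0.19 to 0.13, the mitochondrial percentage from -0.84 to 0.012 and the acinar percentage from -3.15 to 16.3.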

Other observations

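A length measure was computed for each library over the 8531 genes of at least 10 CPM: the median deviation of genes of at most 1000 bp from their PX median, on the log2 CPM scale, minus that of genes above 6000 bp. It stood at 0.58 in PX 57 and 0.61 in PX 65, at 0.52 and 0.24 in PX 62 and PX 58, at 0.0 in PX 41, and between -0.73 and 0.03 in the other 6 lower-BG libraries. It was -0.0044 in sham 49 and -0.45 in sham 50, within a sham range of -1.03 to -0.0044. The measure was chosen after seeing the data, and its part in the results was not tested.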
